A study of Mus musculus with 6 samples.

Results

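The cells described here are mesothelial cells of the mouse lung, taken from single-cell RNA sequencing (scRNA-Seq) of CD45- lung cells. They were chosen by measured values: a cell barcode was kept with at least 500 genes, at least 1000 unique molecular identifiers (UMIs, counted transcripts) and under 15% of UMIs from mitochondrial genes. A kept barcode was a member when at least 3 of the 4 genes Msln, Upk3b, Wt1 and Lrrn4 had a UMI and when Ptprc, Cdh5, Lamp3 and Foxj1, which mark leukocytes, endothelium, type 2 alveolar epithelial cells (AEC2s) and ciliated cells, had none. This rule found 1387 mesothelial cells among 44096 kept barcodes (3.15%) and 88578 barcodes in all. Of these cells, 1031 carried all 4 genes and 356 carried 3 of them.

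There were 6 libraries of magnetically enriched CD45- cells on the C57BL/6 background, 4 labelled control and 2 labelled Zip8 knockout, each from mice of 10 to 12 weeks, 2 weeks after 4 doses of tamoxifen. The knockout mice were SFTPC-CreER Rosa26-tdTomato Zip8 fl/fl (Zip8AEC2), so that tamoxifen removes floxed Slc39a8 (ZIP8, a zinc importer) where the surfactant protein C promoter drives Cre, which is the AEC2 and not the mesothelium. The controls were littermates whose alleles the labels do not give beyond the word control. How many mice went into a library is not stated, so p-values measure the spread between libraries, which may in part be technical.

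Control libraries 1 to 4 gave 70, 275, 240 and 407 mesothelial cells with 779287, 3885375, 3850473 and 3808781 UMIs, and the libraries labelled Zip8AEC2 1 and 2 gave 294 and 101 cells with 3438964 and 1436590 UMIs. The median mesothelial cell held 10286, 13670, 14415 and 8430 UMIs in the controls and 10567 and 12831 UMIs in the libraries labelled Zip8AEC2. Control 1 therefore rested on the fewest cells, and control 4 on the shallowest ones. Levels of single genes are CPM, the gene's UMIs scaled to all mesothelial UMIs of a library (with TMM factors of 0.971 to 1.04). Levels of other cells and sums of lists are CPM of the plain total. The plain total was also used for mesothelial Esr1 and for mesothelial values given with the MHC class II genes. It was used as well for cells divided by the number of rule genes or by Msln. All levels come from 3′ tags and were not divided by gene length.

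Mesothelium is the single sheet of flat cells that covers the lung as visceral pleura and lines the body cavity. It arises from mesoderm, yet it carries keratins, cell junctions, microvilli and a coat of mucins and hyaluronan on its free side, and it lays down matrix on its basal side. The sheet secretes lubricant, complement proteins and growth factor modulators, makes retinoic acid, and can take on mesenchymal features during development and injury.

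Sequence upstream of the start of transcription is shown for 4 genes whose RNA marked these cells in every library, because all 4 windows hold the letters GGAATG, the core that TEAD transcription factors of the Hippo pathway are known to bind. Each run is the 200 bases from 250 to 51 bases before the RefSeq start on build GRCm38.p6, the assembly behind mm10, read 5′ to 3′ along the gene and free of annotated exons. The starts of Upk3b and Lrrn4 lie at the outer end of the annotated gene. Those of Cldn15 and Gpm6a are alternative starts: the Cldn15 window lies inside the gene as GENCODE annotates it, and the Gpm6a window lies far upstream of the annotated gene, whose nearer RefSeq start had no match. Which start these cells used was not measured. Capitals mark GGAATG or, where the match lies on the other strand, CATTCC. Upk3b (uroplakin 3B, a membrane plaque protein) was read from chr5:136038246-136038445 on the plus strand, Lrrn4 (a leucine-rich repeat membrane protein) from chr2:132880913-132881112 on the minus strand, Cldn15 (a claudin) from chr5:136967619-136967818 on the plus strand, and Gpm6a (a tetraspan membrane glycoprotein) from chr8:54779184-54779383 on the plus strand.
Upk3b: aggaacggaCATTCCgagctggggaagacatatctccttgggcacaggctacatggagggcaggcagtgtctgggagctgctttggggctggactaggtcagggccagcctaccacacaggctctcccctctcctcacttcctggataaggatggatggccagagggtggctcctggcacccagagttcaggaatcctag
Lrrn4: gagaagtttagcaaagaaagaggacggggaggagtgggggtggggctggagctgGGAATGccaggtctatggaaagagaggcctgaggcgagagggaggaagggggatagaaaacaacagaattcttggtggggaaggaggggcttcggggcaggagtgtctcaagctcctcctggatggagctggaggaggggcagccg
Cldn15: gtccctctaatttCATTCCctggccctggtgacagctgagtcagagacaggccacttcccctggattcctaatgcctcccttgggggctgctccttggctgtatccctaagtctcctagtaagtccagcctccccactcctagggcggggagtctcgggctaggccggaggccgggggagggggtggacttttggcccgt
Gpm6a: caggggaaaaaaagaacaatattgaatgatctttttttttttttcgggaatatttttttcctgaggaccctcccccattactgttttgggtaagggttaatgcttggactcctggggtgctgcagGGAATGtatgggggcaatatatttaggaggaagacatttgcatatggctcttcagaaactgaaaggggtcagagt
The matches began 241, 196, 237 and 125 bases before the start of Upk3b, Lrrn4, Cldn15 and Gpm6a. The promoter table held 22 of the 29 marker genes (the 4 rule genes and the 25 most selective genes outside it), and 6 of the 22 (27.3%) had GGAATG on either strand within 250 bases before the start, against 14.4% of 27025 genes and 12.6% of 32851 start windows. The other 2 were Igfbp5 and Myl7. The letters GCGTGGG, which WT1 and EGR1 are known to bind, were in 1 of the 22 (4.55%, Aldh1a2) against 4.94% of genes. Msln, Wt1, Pkhd1l1, Upk1b, Myrf, Flrt1 and Fras1 were not in the table. Such matches are counts of letters and not binding sites.

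Labels were checked first on the targeted gene. Among AEC2-gated cells (Lamp3 and at least 3 of 5 surfactant genes, 17615 cells), Slc39a8 stood at 170.2, 146, 139 and 187 CPM in the controls and 183 and 177 CPM in the libraries labelled Zip8AEC2. The groups overlapped, and the mean was 161 ± 21.9 CPM (SD, n = 4) against 180.0 ± 4.68 CPM (SD, n = 2; exact permutation test, two-sided, p = 0.267, where 15 splits allow no p below 0.0667). A 3′ tag can lie outside the floxed part of the gene, so this checks neither label. Esr1, the estrogen receptor gene, did separate the groups in AEC2s, at 1.30, 0.988, 1.45 and 1.27 CPM against 16.1 and 16.3 CPM (exact permutation test, two-sided, p = 0.0667), whereas in mesothelial cells it stood at 25.7, 25.5, 28.0 and 19.7 CPM against 30.2 and 28.5 CPM (p = 0.2 by the same exact test). The enzyme CreER carries part of an estrogen receptor, and the labels do not say whether the controls had CreER. For organoids the paper set Zip8AEC2 mice beside SFTPC-CreER Rosa-Tomato mice, without stating whether the sequenced controls had the same alleles. In every difference between labels given here, the Zip8 genotype and the presence of CreER therefore cannot be told apart. All 6 libraries gave mesothelial Ddx3y, a Y-linked gene, at 92.5 to 113 CPM and 1 UMI of Xist in total.

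Several libraries shared cell barcodes, and this was counted before any comparison. Of 51485 distinct barcodes, 13923 were present in more than 1 library. Among mesothelial cells 503 (36.3%) had a barcode that another library also held, against 47.8% of kept barcodes. None was a mesothelial cell in more than 1 library, and 20 were held elsewhere with more UMIs. The copy in the other library had a median of 644 UMIs, whereas the mesothelial cells concerned had 16971. Doublet scoring against simulated pairs marked 5427 kept barcodes, of which 138 were mesothelial (9, 60, 35 and 26 in the controls, 6 and 2 in the libraries labelled Zip8AEC2), and these were kept in the main values. At least 3 of 7 fibroblast markers (Inmt, Npnt, Tcf21, Col13a1, Clec3b, Pi16 and Serpinf1) had a UMI in 341 mesothelial cells.

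Genes outside the rule went with the label. Of 12 further mesothelial markers, 11 had a mean of 50 CPM or more over the 6 libraries, and each of the 11 was at least 2-fold above all other kept barcodes in every library. Their summed level was 8011, 6876, 7418 and 6546 CPM in the controls and 6892 and 7885 CPM in the libraries labelled Zip8AEC2, against 258 CPM in fibroblast-gated cells, 279.9 CPM in AEC2s and 289 CPM in endothelial-gated cells (means of 6 libraries). The exception was Calb2 (calretinin), a marker of human mesothelium, with 1 UMI in all.

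The number of rule genes split the barcodes at the threshold. Barcodes with 3 rule genes, just inside, carried a summed 4815 CPM of the 12 other markers (range over libraries 4001 to 5452), and those with 2 rule genes, just outside, carried 921 CPM (462 to 1759). The 279 barcodes with 2 rule genes held Scgb1a1, the secretoglobin of club cells, at 363260 CPM, against 30718 CPM in the 356 barcodes with 3 and 13621 CPM in the 1031 with 4. Median depth was 3418, 7644.5 and 12585 UMIs in these groups. Another 538 barcodes with at least 3 rule genes were left out because an excluding gene had a UMI, 437 of them for Lamp3, and in 359 that was a single UMI. Their summed level of the 12 markers was 4913 CPM, within the range of the cells with 3 rule genes.

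**Figure D1:**
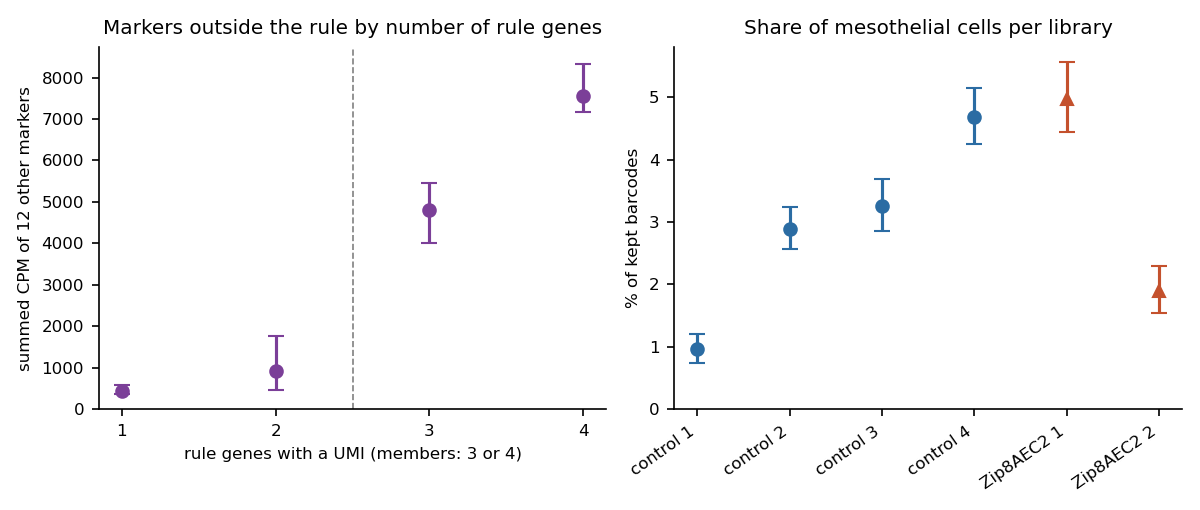
Left, the summed CPM of 12 mesothelial markers outside the rule (y axis) by the number of rule genes with a UMI (x axis), as the value over all 6 libraries with bars from the lowest to the highest library. The dashed line marks the threshold, and 2 genes (921 CPM) and 3 genes (4815 CPM) do not overlap. Right, the share of mesothelial cells in percent of kept barcodes for each library, circles control and triangles labelled Zip8AEC2, with 95% Clopper-Pearson intervals.

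The share of mesothelial cells varied more between libraries of 1 label than between labels. It was 0.959%, 2.89%, 3.26% and 4.69% of kept barcodes in the controls and 4.98% and 1.89% in the libraries labelled Zip8AEC2. The 95% Clopper-Pearson intervals, which cover counting error only, ran from 0.748 to 1.21% in control 1 and from 4.44 to 5.57% in Zip8AEC2 1. Control 1 was the lowest and Zip8AEC2 1 the highest, and the groups overlapped. The mean share was 2.95 ± 1.54% (SD, n = 4) in controls and 3.44 ± 2.18% (SD, n = 2) in libraries labelled Zip8AEC2 (difference 0.486 points, exact permutation test, two-sided, p = 0.733). Over fibroblast-gated cells of the same library in place of all kept barcodes, the share was 3.51, 6.41, 11.5 and 22.8% in the controls and 56.0 and 7.89% in the libraries labelled Zip8AEC2 (exact permutation test, two-sided, p = 0.2), so Zip8AEC2 1 had few fibroblasts beside its mesothelial cells. The difference in the share of kept barcodes was below 0 without control 1 (-0.177 points) and without Zip8AEC2 1 (-1.06 points).

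Genes of the rule were abundant by construction, and their values are given as a description. Upk3b was at 2242, 1965, 2223 and 2020 CPM in the controls and 1812 and 2529.5 CPM in the libraries labelled Zip8AEC2. Lrrn4 was at 792, 741, 739 and 696 CPM and 677 and 840.3 CPM, and both genes varied little. Msln (mesothelin, a GPI-anchored surface protein that binds the mucin MUC16) was at 2284, 1534, 2782 and 1027 CPM in the controls and 1578 and 3546 CPM in the libraries labelled Zip8AEC2. It was lowest in control 4 and highest in Zip8AEC2 2, and both groups spanned a wide range. Wt1, a zinc finger transcription factor of the coelomic lining, was at 399.5, 431, 345 and 494 CPM and 497 and 363 CPM. It was highest in control 4 and Zip8AEC2 1 and lowest in control 3 and Zip8AEC2 2. Among the 356 cells with 3 rule genes, Msln was missing in 244 and Wt1 in 89. By library, 8, 30, 9 and 131 cells of the controls and 62 and 4 cells of the libraries labelled Zip8AEC2 lacked Msln, which was 32.2% of mesothelial cells in control 4, 21.1% in Zip8AEC2 1 and 3.75% to 11.4% in the other 4 libraries. Wt1 was missing more often than Msln in control 3 (12 against 9 cells) and Zip8AEC2 2 (5 against 4 cells).

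Beyond the rule, 2586 genes reached 50 CPM in mesothelial cells of every library. Of these, 46 were at least 10-fold and 442 at least 2-fold above all other kept barcodes in every library. The 25 most selective genes, ranked by the lowest ratio over the 6 libraries, began with Cldn15 (505 ± 31.1 CPM, SD, n = 6; lowest ratio 32.7), Gpm6a (1562 ± 344 CPM; 31.6) and Muc16 (583 ± 157 CPM; 30.1), the large membrane mucin. Further down came the transcription factors Bnc1 (129.8 CPM) and Myrf (247 CPM), the galectins Lgals7 (293 CPM) and Lgals2 (234 CPM), the Wnt agonist Rspo1 (563 CPM), the retinoic acid synthase Aldh1a2 (568 CPM) and the cytokine Il18 (147 CPM). Upk1b, Pkhd1l1, Tmem151a, Fam180a, Flrt1, Fras1, Cmah, Stk26, Igfbp5, Crb2, Ildr2, Rpp25, Myl7, Aplp1 and Rgs4 made up the rest. These genes were found on the same cells as the rule, so the ratios are descriptive.

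**Figure D2:**
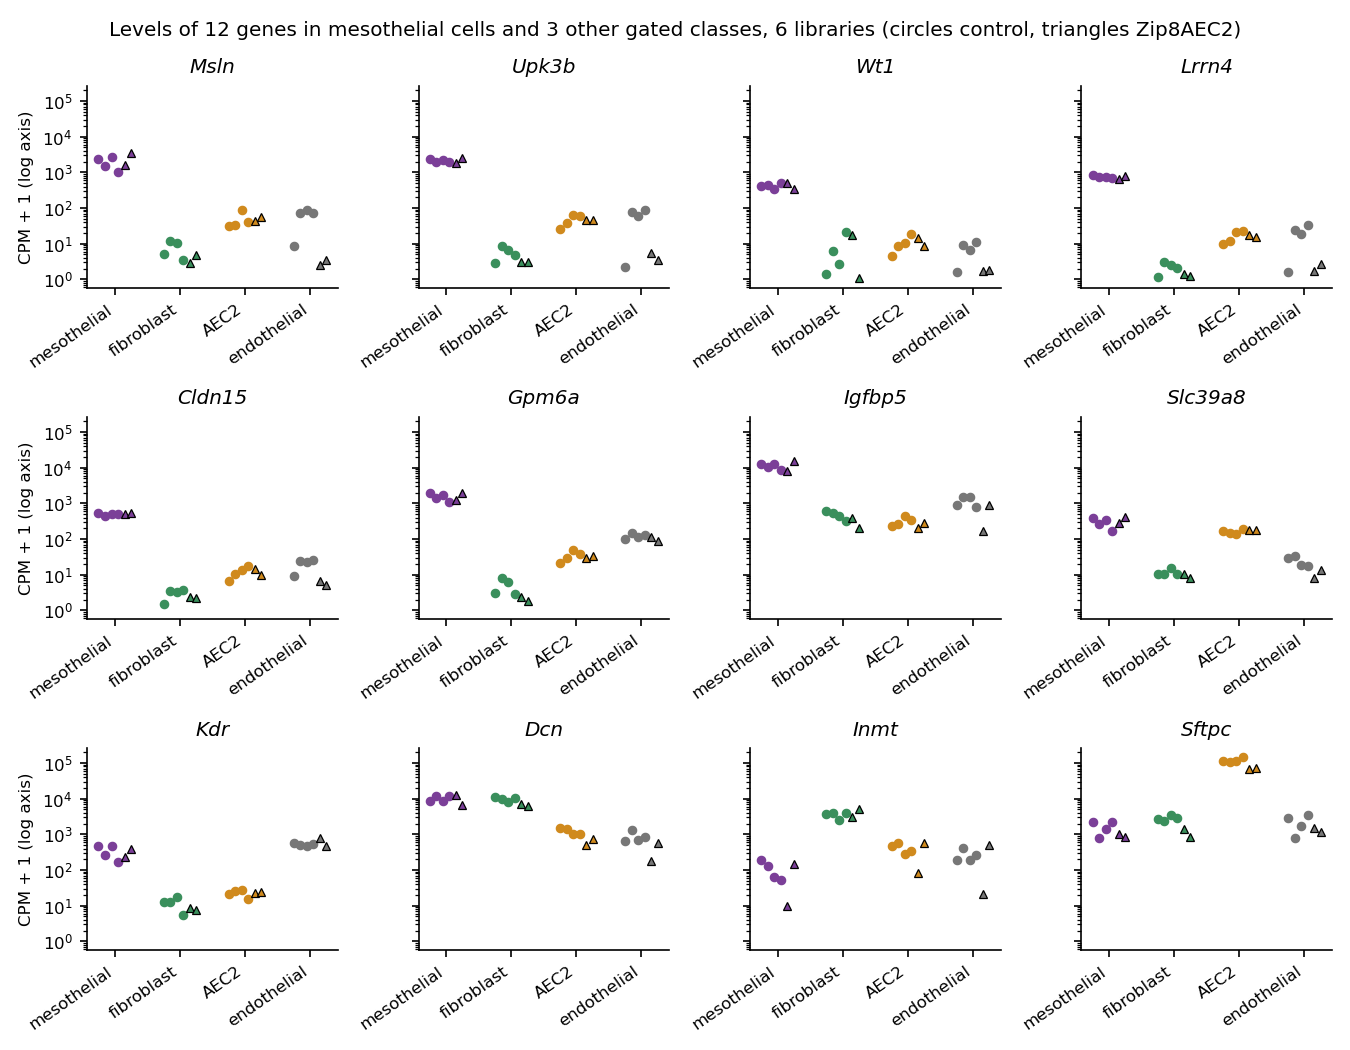
CPM + 1 on a log axis for 12 genes in mesothelial, fibroblast-gated, AEC2-gated and endothelial-gated cells, with 1 point for each of 6 libraries (circles control, triangles labelled Zip8AEC2). The 4 rule genes, Cldn15, Gpm6a and Igfbp5 lie above every other class in every library, Kdr overlaps the endothelial cells, Dcn overlaps the fibroblasts, and Inmt and Sftpc lie far under the class they mark.

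Of 21 keratin and junction genes, 10 had a mean of 50 CPM or more over the 6 libraries. Krt19 was at 1065 ± 139 CPM, Krt18 at 422 ± 127 CPM, and Ezr (ezrin, which ties microvilli to actin) at 928 ± 187 CPM (each SD, n = 6). Cldn15 was the only claudin of 6 listed with a mean above 100 CPM, and Cldn3 came next (70.5 ± 32.9 CPM). Cdh1 (E-cadherin) was at 6.37 CPM and Epcam at 11.4 CPM, against 190 and 153 CPM in AEC2s, and Cdh2 (N-cadherin) was at 6.07 CPM. Cdh3 (P-cadherin) stood at 49.5, 28.2, 37.4 and 14.7 CPM in the controls and 13.8 and 38.8 CPM in the libraries labelled Zip8AEC2, against 0.101 CPM in fibroblasts and 0.912 CPM in AEC2s. Krt18 and Cdh3 were both low in control 4 and in Zip8AEC2 1.

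Transcription factors of the coelomic lining and lung mesoderm were present in part. Of 19 listed, 12 were above all other kept barcodes in every library. Osr1 was at 190.5, 368, 179 and 449.7 CPM in the controls and 341 and 130.1 CPM in the libraries labelled Zip8AEC2, Gata6 at 259, 256, 201 and 263 and 394 and 270.3 CPM, and Meis2 at a mean of 181 ± 17.5 CPM (SD, n = 6). Osr1 was highest in control 2, control 4 and Zip8AEC2 1, the 3 libraries in which Msln was lowest. Sox6 (81.1 CPM), Tbx18 (40.8 CPM), Isl1 (32.6 CPM) and Gata4 (23.9 CPM) were each at 7 CPM or less in fibroblasts, AEC2s and endothelial cells, whereas Tcf21, the factor of alveolar fibroblasts, was at 6.56 CPM against 197 CPM in fibroblasts.

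Retinoid genes were led by the synthetic enzymes. Aldh1a2 was at 664, 497, 727 and 398 CPM in the controls and 436 and 689 CPM in the libraries labelled Zip8AEC2, against 24.7 CPM in fibroblasts. Aldh1a1 (456 ± 141 CPM) was not selective, with 541 CPM in fibroblasts. The receptor Rarg was at 51.9 CPM, while the degrading enzyme Cyp26b1 was at 1.04 CPM and marked endothelial cells (83.6 CPM). Among genes of the surface coat, the heparan sulfate proteoglycan Sdc4 was at 687 ± 143 CPM, the protease inhibitor Slpi at 670 ± 313 CPM and the hyaluronan synthase Has1 at 134 ± 49.8 CPM, whereas Has2, the synthase of fibroblasts, was at 0.786 CPM.

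Complement genes were led by C3. The 14 listed genes summed to 13534, 14241, 15767 and 13468 CPM in the controls and 15226 and 14986 CPM in the libraries labelled Zip8AEC2, against 7556 CPM in fibroblasts and 1404 CPM in AEC2s. C3, the central component, was at 4511, 5881, 6003 and 5888 CPM and 6063 and 5521 CPM, and C4b, C2 and the C1 inhibitor gene Serping1 had means of 1939, 796 and 1898 CPM. Of these, C3, C4b and C2 were above fibroblasts (1696, 573 and 100.1 CPM), and Serping1 was not (2757 CPM). Clu (clusterin, a chaperone that blocks the terminal complex) was at 1794 ± 316 CPM. The alternative pathway gene Cfb was at 59.8 CPM.

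Among chemokines and acute phase genes, Cxcl10 was at 166, 238, 135 and 281 CPM in the controls and 388 and 359 CPM in the libraries labelled Zip8AEC2. The alarmin Il33 was at 224, 301, 236 and 305 and 180.3 and 199 CPM, and the neutrophil attractant Cxcl1 at 63.1, 282, 111 and 45.5 and 398 and 288 CPM. The libraries labelled Zip8AEC2 did not overlap the controls for these 3 genes, which held for 14.6% of all genes tested.

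Of 33 listed ligands and modulators, 16 had a mean of 50 CPM or more over the 6 libraries, and the 3 most abundant were the binding proteins Igfbp5, Igfbp6 and Igfbp4. Igfbp5 and Igfbp6, which bind insulin-like growth factors, were at 11404 ± 3088 and 5707 ± 1416 CPM (SD, n = 6), against 415 and 1826 CPM in fibroblasts. Gas6, the ligand of TAM receptors, was at 1084 ± 158 CPM. Fgf1 was at 248 CPM, Wnt4 at 142 CPM, Fgf18 at 62.8 CPM and Fgf9 at 53.6 CPM, with 6.41 and 2.24 CPM of the last pair in fibroblasts. Fgf10 and Fgf7, ligands made by fibroblasts (65.7 and 93.9 CPM there), were at 3.14 and 3.09 CPM. Igfbp4 and Igfbp3 were uneven across libraries, with Igfbp3 at 12.4, 95.9, 13.0 and 488 CPM in the controls and 215 and 19.4 CPM in the libraries labelled Zip8AEC2, highest in control 4 and Zip8AEC2 1.

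Matrix genes overlapped those of fibroblasts. The proteoglycan gene Dcn was at 10163 ± 2457 CPM in mesothelial cells and 8865 CPM in fibroblasts, and Col3a1 at 1886 ± 539 and 2201 CPM. Col1a2 was lower (825 against 2952 CPM), and Efemp1, a fibulin of the elastic fibre, was higher (1726 against 402 CPM). Of 20 listed genes none was 2-fold above fibroblasts in every library. In the basement membrane list, Sparc was at 1546 CPM and the laminin genes Lamb2 and Lamc1 at 219 and 117 CPM, while Nid2 (nidogen 2, a linker of laminin and collagen IV) was at 90.3 CPM against 4.43 CPM in fibroblasts. Genes linked to mesothelial-to-mesenchymal transition were led by S100a6 (4006 ± 677 CPM), Vim (2213 ± 269 CPM) and Cyr61 (1451 ± 613 CPM), whereas the transition factors Snai1 and Snai2 were at 4.33 and 3.28 CPM and the contractile gene Acta2 at 28.8 CPM.

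Among zinc genes, the target of the study was the most abundant transporter in mesothelial cells. Slc39a8 was at 365, 258, 343 and 166 CPM in mesothelial cells of the controls and 275 and 435 CPM in the libraries labelled Zip8AEC2, a mean of 307 ± 94.0 CPM (SD, n = 6). AEC2s had 167 CPM, fibroblasts 9.94 CPM and endothelial cells 18.7 CPM. The mesothelial level was above that of AEC2s in 5 of 6 libraries, all except control 4 (166 against 187 CPM of total UMIs). Thinned to 2000 UMIs, 20.1% of mesothelial cells in control 4 and 55.4% in Zip8AEC2 2, the extremes, had a Slc39a8 UMI, against a mean of 2.27% of fibroblasts. The metallothionein genes Mt1 and Mt2, which buffer zinc, were at 572 ± 176 and 349 ± 152 CPM. Of 27 zinc transporter and metallothionein genes, 22 had a UMI in mesothelial cells, and the next SLC39 gene, Slc39a1, was at 68.4 ± 12.2 CPM.

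RNA of other cell types was measured in the same cells. Scgb1a1 was at 7478, 23910, 21461 and 7566 CPM in the controls and 9234 and 32720 CPM in the libraries labelled Zip8AEC2, and Sftpc (surfactant protein C) at 2084, 811, 1380.3 and 2292 and 1036 and 878 CPM. AEC2-gated cells held 103470 CPM of Sftpc, and kept barcodes that were not mesothelial held 207340 CPM of Scgb1a1. All 6 libraries thus had both transcripts in mesothelial cells, at a small part of those levels for Sftpc. The 8 AEC2 markers summed to 2184 CPM and the 5 club markers to 17902 CPM (means of 6 libraries). Alveolar fibroblast markers summed to 376 CPM against 5537 CPM in fibroblasts, with Inmt at 99.6 CPM and Col13a1 at 1.99 CPM. Adventitial fibroblast markers reached 11396 CPM, of which Dcn was most. Erythroid genes were uneven, at a summed 21.8, 1088, 10.9 and 1924 CPM in the controls and 7.56 and 20.2 CPM in the libraries labelled Zip8AEC2. Pecam1 was at 2.22 CPM although Kdr, the VEGF receptor 2 gene, was at 449, 260.1, 475 and 172 CPM and 232 and 413 CPM, against 555 CPM in endothelial cells. Marker sums of AEC1s, ciliated cells and smooth muscle were 441, 64.8 and 94.6 CPM, led by Pdpn (241 CPM, also a mesothelial gene), Tppp3 (49.2 CPM) and Des (31.2 CPM). The immune markers summed to 331, 163, 258 and 1848 CPM in the controls and 681 and 281 CPM in the libraries labelled Zip8AEC2, of which Cd74 was most in control 4, and the leukocyte adaptor gene Tyrobp was at 0.337 CPM.

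Mesothelial cells differed among themselves. After each cell was thinned to 2000 UMIs, the variance over the mean of a gene's UMIs had a median of 1.04 over 2213 genes, close to counting alone. Ranked by the lowest of the 6 libraries, the largest values belonged to the nuclear RNA Malat1 (median of 6 libraries 26.5) and Gm42418 (22.8), a locus in ribosomal RNA sequence. They were followed by Igfbp5 (12.3), Lgals1 (11.5, a galectin), Dcn (10.8) and Slpi (9.75). Msln had 4.81.

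Because the share of cells that lacked Msln differed between libraries, the cells were divided by whether they had a Msln UMI at 2000 UMIs, a division chosen after its values were seen. The counts with and without Msln were 56 and 14, 193 and 70, 206 and 32, and 199 and 195 in the controls, and 188 and 104 and 91 and 10 in the libraries labelled Zip8AEC2. Control 4 was the only library split evenly. Median depth before thinning was 8368 UMIs with and 8721 UMIs without Msln in control 4, and 10408 and 7248 UMIs in control 1. A cell with no Msln at its full depth is a member only through Upk3b, Wt1 and Lrrn4, so the 4 rule genes are not independent of the division. Of 1687 other genes at 100 CPM or more, 394 were higher in cells with Msln in 6 of 6 libraries and 220 were higher in cells without it in 6 of 6. These are descriptions of cells and carry no test.

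Among the genes higher in cells with Msln, Slc39a8 averaged 375 CPM with and 85.4 CPM without Msln (log2 ratio 1.62 to 3.16 over libraries, 10 CPM added), and Kdr 393 and 108 CPM. Muc16, the partner of mesothelin, averaged 688 and 209.9 CPM, and the water channel gene Aqp1 1937 and 344 CPM. All 4 genes had their higher level with Msln in each library. The same held for Slurp1 (307 against 13.3 CPM, a secreted Ly6 protein), the prostaglandin transporter Slco2a1 (499 against 47.3 CPM), the atrial myosin light chain Myl7 (189 against 13.4 CPM) and the laminin receptor Bcam (685 against 129.5 CPM). It also held for Efemp1 (1863 against 1287 CPM), Rspo1 (605 against 407 CPM) and Aldh1a2 (642 against 297 CPM).

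Among the genes higher in cells without Msln, Enpp2 (autotaxin, which makes lysophosphatidic acid) averaged 1540 CPM without and 259.5 CPM with Msln (log2 ratio -3.86 to -1.90), Lgals1 6644 and 2367 CPM, and Wnt4 309 and 77.0 CPM. Dcn averaged 15090 against 8365 CPM, Col1a1 875 against 399.6 CPM and the coelomic factor Osr1 516 against 208 CPM. Each of these 6 genes was higher without Msln in 6 of 6 libraries, as were the surface genes Podxl (130.3 against 43.9 CPM) and Fzd1 (145 against 37.1 CPM). Gpm6a (1790.3 with, 750.4 without) and Cldn15 (561 and 323 CPM) remained above the 26.3 and 8.05 CPM of all other kept barcodes on both sides of the division. RNA of other cells moved with the division in some libraries, Scgb1a1 averaging 11283 CPM with and 57197 CPM without Msln (log2 ratio -4.47 to 0.39), Inmt of alveolar fibroblasts 90.3 and 166 CPM and Sftpc 1381 and 1482 CPM, and its part in the division was not tested. In control 4, where both sides held about as many cells, Scgb1a1 was at 4634 and 10564 CPM, Slc39a8 at 302 and 24.9 CPM and Enpp2 at 499 and 1885 CPM.

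**Figure D3:**
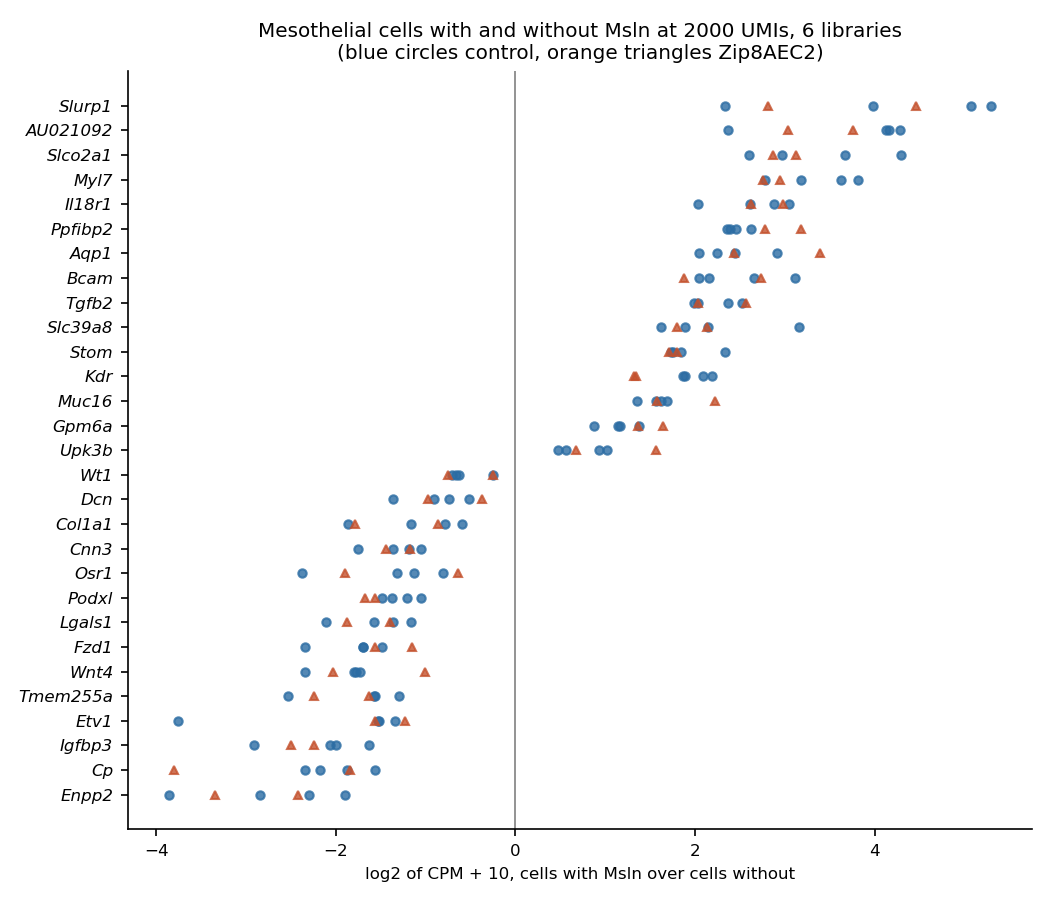
For 29 genes (y axis), the log2 ratio of CPM + 10 in mesothelial cells with a Msln UMI over those without, at 2000 UMIs a cell (x axis), 1 point per library (blue circles control, orange triangles labelled Zip8AEC2). The 15 upper genes lie right of 0 and the 14 lower genes left of 0 in all 6 libraries. They include Slc39a8 (1.62 to 3.16) and Enpp2 (-3.86 to -1.90).

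Control 4 stood apart from the other libraries in antigen presentation and interferon genes, so results that rest on it are given with and without it. The 15 MHC class I and peptide loading genes summed to 3787, 4287, 6739.7 and 17042 CPM in the controls and 5011 and 3653 CPM in the libraries labelled Zip8AEC2. All 15 were highest in control 4, whose sum was 3.45 times the mean of the other controls. The ratio was 1.38 in fibroblasts, 1.39 in AEC2s and 1.34 in endothelial cells of the same libraries. In each of these other classes Zip8AEC2 1 had the highest sum, at 3446.5, 2894.9 and 13377 CPM. Control 4 held 3113.8, 2420.5 and 9728.4 CPM there and was highest for 4, 5 and 2 of the 15 genes. The 18 interferon response genes summed to 3415, 3947, 5804 and 8968 CPM and 3639.8 and 2957 CPM, and 16 of 18 were highest in control 4. Its sum was 2.04 times the mean of the other controls in mesothelial cells, 1.38 times in fibroblasts, 1.35 times in AEC2s, where 15 of 18 were also highest in control 4, and 1.27 times in endothelial cells. At 2000 UMIs a cell, 62.7% of mesothelial cells of control 4 had a UMI of H2-Q7, a nonclassical class I gene, and 4.18% to 17.2% in the other 5 libraries. The interferon-induced Isg15 had a UMI in 32.2% of cells in control 4 and in 1.98% to 13.9% elsewhere.

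MHC class II genes also had control 4 at the top. The invariant chain gene Cd74 stood at 68.0, 47.9, 64.9 and 1525 CPM in the controls and 444 and 29.2 CPM in the libraries labelled Zip8AEC2, and H2-Ab1 at 38.5, 24.2, 26.0 and 789 CPM and 148 and 14.6 CPM. Control 4 was highest and Zip8AEC2 1 next for both. Ciita, the transactivator of class II genes, had 15 UMIs in mesothelial cells, all of them in control 4. AEC2s, which express class II genes, held 2297 CPM of Cd74 and 417 CPM of H2-Ab1 in control 4, so that mesothelial cells had less Cd74 but more H2-Ab1 than AEC2s there, while Sftpc was at 2286 CPM in the one and 145940 CPM in the other. Cd74 was at 93.7 CPM in fibroblasts of control 4. In that library H2-K1 was at 4274 CPM in mesothelial cells with Msln and 4873 CPM in those without it. Cd74 there was at 797 CPM with and 2282.5 CPM without Msln, and Cd74 was higher without Msln in every library.

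**Figure D4:**
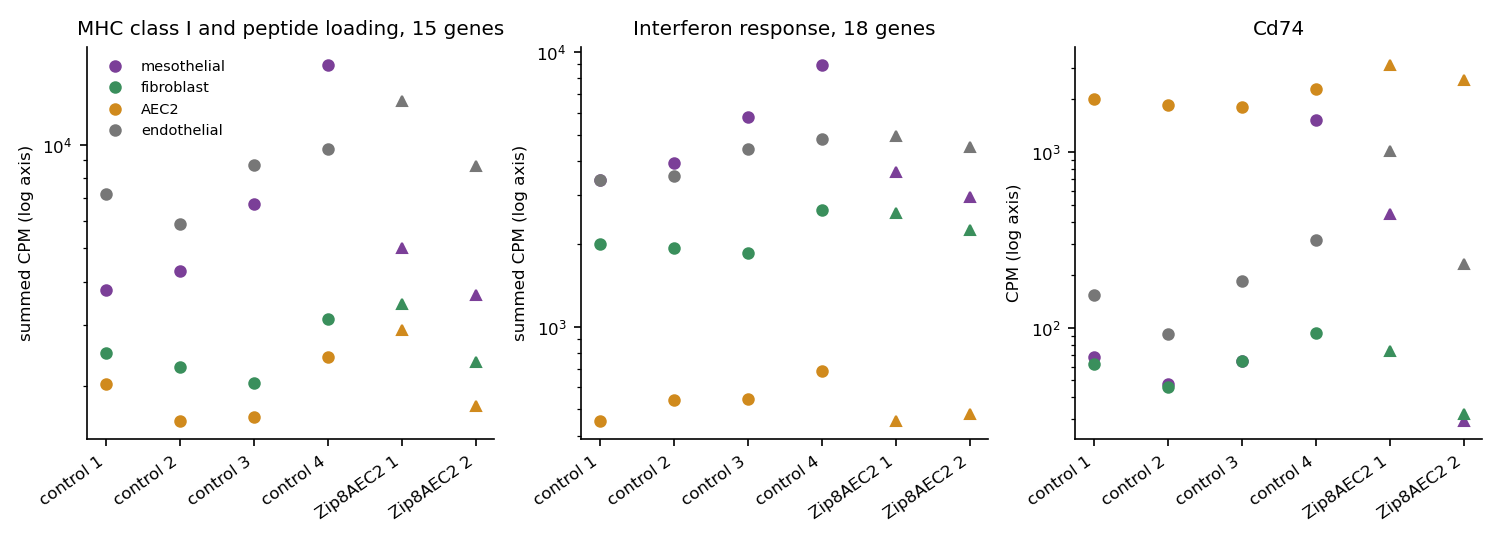
Summed CPM of 15 MHC class I and peptide loading genes (left), summed CPM of 18 interferon response genes (middle) and CPM of Cd74 (right), all on log axes, in 4 classes of cells for each library (circles control, triangles labelled Zip8AEC2). Mesothelial cells of control 4 reach 17042, 8968 and 1525 CPM, above the mesothelial cells of every other library, whereas the other classes differ less between libraries for the 2 sums.

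The study asked what loss of ZIP8 in AEC2s does to the lung, and the contrast of labels in mesothelial cells is the one that the rule did not use. UMIs were summed per gene and library and tested with edgeR's quasi-likelihood test on 11720 genes. No gene passed an adjusted p of 0.05 (0.0% of genes, lowest adjusted p 0.243), and 576 genes had an unadjusted p under 0.05 (4.91%), 285 higher and 291 lower in the libraries labelled Zip8AEC2. The libraries of both labels did not overlap for 1713 genes (14.6%). DESeq2 called 10 genes and edgeR without a filter on low counts called 5. The median half-width of the 95% interval of a log2 fold change was 0.519 over all genes tested and 0.331 over genes with a mean of 50 CPM or more. This is the precision that 4 against 2 libraries gave for a single gene, before adjustment for the number of genes.

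The genes given here had the smallest p in each direction among those with a mean of at least 20 CPM and no overlap between labels, apart from those not reported here, so non-overlap was part of their choice, and none was past the threshold. Bhlhe40, a circadian and stress-induced repressor, stood at 38.3, 36.0, 41.1 and 37.4 CPM in the controls and 96.8 and 68.3 CPM in the libraries labelled Zip8AEC2 (log2 difference 1.13, SE 0.15, edgeR adjusted p = 0.243). The nuclear long noncoding RNA Neat1 stood at 428, 492, 382 and 387 CPM and 725 and 751 CPM (0.81, SE 0.14, edgeR adjusted p = 0.844). Hspb2, H1f0 and Scarf2 followed with log2 differences of 0.85, 0.80 and 0.51, and that of H1f0 was 0.52 without Zip8AEC2 2.

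On the lower side, Pi16, a marker of adventitial fibroblasts, stood at 65.6, 89.1, 44.4 and 51.1 CPM in the controls and 11.2 and 8.63 CPM in the libraries labelled Zip8AEC2 (-2.60, SE 0.35, edgeR adjusted p = 0.243). Fibroblast-gated cells held 1104 CPM of it, and the log2 difference was -1.67 without the mesothelial cells that carried fibroblast markers and -1.40 without likely doublets. Palmd (palmdelphin) stood at 99.0, 73.8, 74.1 and 79.0 CPM and 44.4 and 39.5 CPM (-0.92, SE 0.15, edgeR adjusted p = 0.708). Endothelial cells held 223 CPM of Palmd, and the part of endothelial RNA in the difference was not tested. Gm26917 and Ap4e1 had log2 differences of -1.13 and -0.75. With means under 20 CPM, Ly6c1 (-2.73) and Ccl11 (-4.69) had smaller unadjusted p in edgeR than Pi16 (edgeR adjusted p = 0.243 for each). On the higher side Lsmem1 stood at 9.89, 10.4, 5.20 and 12.1 CPM and 39.7 and 38.1 CPM (2.06, SE 0.29, edgeR adjusted p = 0.243). All 3 were among the genes that DESeq2, and edgeR without a filter, called.

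For the genes named by the study, the intervals were wide. Slc39a8 had a log2 difference of 0.33 (95% interval -0.41 to 1.07, edgeR adjusted p = 0.970), which was -0.04 without Zip8AEC2 2. Chil1, a chitinase-like gene of AEC2s, stood at 29.7, 23.6, 41.8 and 21.9 CPM and 73.8 and 37.4 CPM (0.97, 95% interval 0.22 to 1.73, edgeR adjusted p = 0.935). The difference was 0.35 without Zip8AEC2 1. Scaled by total UMIs, Chil1 was at 912, 715, 131 and 236 CPM in AEC2s of the controls against 3254 and 923 CPM, and at 51.1, 44.0, 26.9 and 28.3 CPM in fibroblasts against 172 and 39.7 CPM. Zip8AEC2 1 was the highest library in all 3 classes, whereas control 3 was the highest control in mesothelial cells and the lowest in the other classes, and the part of other cells' RNA in the mesothelial values was not tested. The difference of H2-K1, -0.96 (edgeR adjusted p = 0.951), was -0.18 without control 4.

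**Figure D5:**
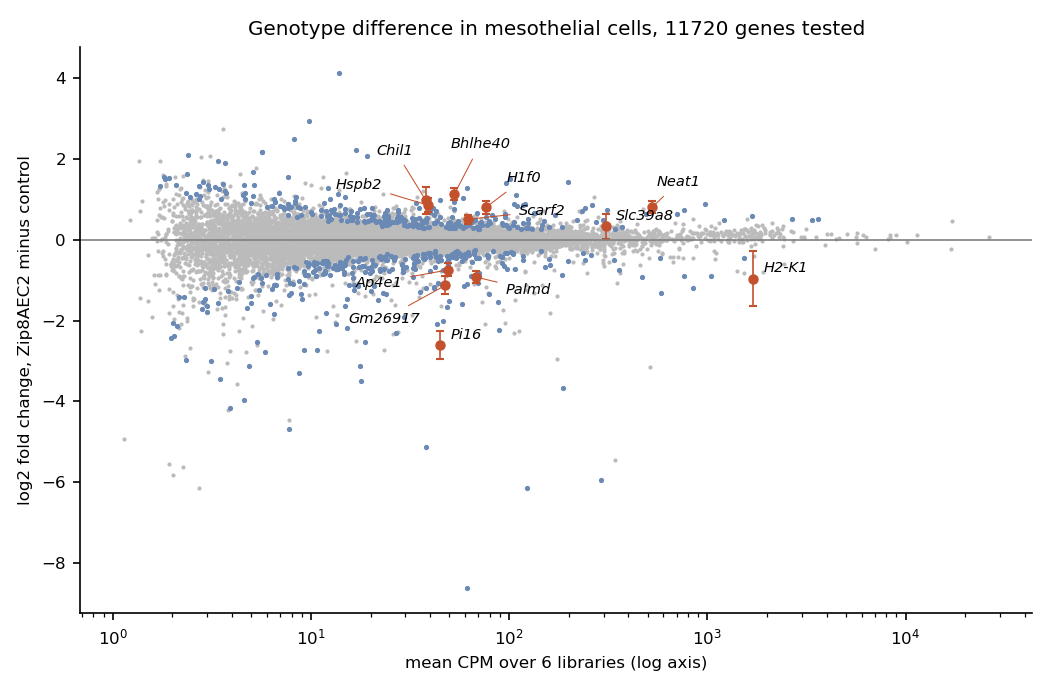
Log2 fold change in mesothelial cells, libraries labelled Zip8AEC2 minus controls (y axis), against mean CPM over 6 libraries on a log axis (x axis), for 11720 genes. Blue points have an unadjusted p under 0.05 and red points, with bars of 1 SE, are genes of smallest p in each direction at 20 CPM or more whose libraries did not overlap, and Slc39a8, Chil1 and H2-K1. Bhlhe40 (1.13) and Pi16 (-2.60) have the smallest p among the red points, and no gene passed an adjusted p of 0.05.

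Gene lists are described by counts against the 50.6% of tested genes that were higher in the libraries labelled Zip8AEC2, the 4.91% with an unadjusted p under 0.05 and a median log2 difference of 0.0040 over all genes. Of 18 immediate-early and heat shock genes, 14 were higher and 5 had an unadjusted p under 0.05, all 5 higher (median 0.38). Fos stood at 3253, 3602, 3044 and 2872 CPM in the controls and 4954 and 4105 CPM in the libraries labelled Zip8AEC2, and Fosb at 1463, 1569, 1485 and 1199 and 1989 and 2328 CPM. Socs3, the feedback inhibitor of cytokine receptors, stood at 80.4, 96.1, 82.4 and 119 and 203 and 144 CPM. With 1 library left out, 3 (without Zip8AEC2 2) to 9 (without control 2) of the 18 had an unadjusted p under 0.05. Without control 4, 14 were again higher and the median was 0.28.

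Interferon response genes had the opposite sign in 17 of 18 (median -1.09, 6 with an unadjusted p under 0.05, of which 5 lower). Bst2 (tetherin) stood at 532, 459, 710.2 and 1230.4 CPM and 396 and 193 CPM. Without control 4 the median was -0.50 and 16 of 18 were still lower, and without Zip8AEC2 1 or without Zip8AEC2 2 the unadjusted p was under 0.05 for 1 of 18, against 9 without control 2. Irf1 was the exception, at 87.8, 151, 143 and 196 CPM and 204 and 246 CPM. None of 14 MHC class I genes tested was higher (median -0.82, none with an unadjusted p under 0.05), but 7 of 14 were higher without control 4 (median -0.04).

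Chemokines and acute phase genes had 9 of 15 at an unadjusted p under 0.05, 6 higher and 3 lower (median 0.48, and 0.91 without Zip8AEC2 2). Ccl2, a monocyte attractant, stood at 8.66 to 107 CPM in the controls and 191 and 174 CPM in the libraries labelled Zip8AEC2, and Cxcl2 at 0, 1.04, 5.20 and 1.32 CPM and 75.3 and 0 CPM. Cxcl2 was thus high in Zip8AEC2 1 alone: its log2 difference of 4.13 was -5.65 without that library, a fitted value against a library with 0 UMIs. Without Zip8AEC2 1, 2 of 15 had an unadjusted p under 0.05 and both were lower. Ccl11 (eotaxin) stood at 7.42, 15.3, 9.09 and 13.7 CPM and 0.294 and 0.719 CPM, with 225 CPM in fibroblasts. Adventitial fibroblast markers were lower in 8 of 8 (median -0.64, 3 with an unadjusted p under 0.05: Pi16, Ly6c1 and Clec3b), and Clec3b stood at 443, 759.7, 432 and 579.5 CPM and 279 and 306 CPM. Leaving out the mesothelial cells with fibroblast markers gave 6 of 8 lower and a median of -0.64, and Ly6c1 then had a log2 difference of -0.83 in place of -2.73. Clec3b, Pi16 and Serpinf1 are in this list and also among the markers by which those cells were left out, so the 2 are not independent. The summed level of the 8 markers, mostly Dcn, overlapped between labels in mesothelial cells (9599.6 to 13756 CPM in the controls and 13617 and 7730.1 CPM) but not in fibroblasts (14275 to 19840 CPM in the controls and 13027 and 11300 CPM), and the part of fibroblast RNA in the mesothelial differences was not tested.

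Among factors and matrix, Meis1 stood at 77.9, 56.5, 79.3 and 66.3 CPM in the controls and 118 and 92.0 CPM in the libraries labelled Zip8AEC2, the retinol dehydrogenase Rdh10 at 26.0, 24.9, 21.6 and 34.0 and 55.9 and 42.4 CPM, and the elastin gene Eln at 292, 192, 311 and 229 and 395 and 461 CPM. These 3 genes did not overlap between labels, and their unadjusted p were 0.00781, 0.00255 and 0.00670 (edgeR, adjusted p = 0.935 for each). Of 17 transcription factors tested 3 had an unadjusted p under 0.05, all higher, of 11 retinoid genes 3 (2 higher), of 20 collagen and elastic fibre genes 3 (3 higher), of 17 basement membrane genes 2 (1 higher), of 31 ligand and modulator genes 4 (1 higher) and of 15 p53 targets 2 (1 higher). Of 21 genes of mesothelial-to-mesenchymal transition, 12 complement genes, 11 surface coat genes and 20 zinc genes none had. These counts moved when 1 library was left out: basement membrane 0 to 8 (8 without Zip8AEC2 1, and 0 without control 2, 3 or 4), collagen 2 to 8 and ligands 2 to 9 (both highest without Zip8AEC2 2), transcription factors 1 to 3, retinoid genes 2 to 4, p53 targets 1 to 4, mesenchymal transition 0 to 3 (3 without either library labelled Zip8AEC2), surface coat 0 to 2, and complement and zinc genes 0 to 1.

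Cell cycle genes summed to 393, 220.1, 107 and 108 CPM in the controls and 109 and 64.7 CPM in the libraries labelled Zip8AEC2. Control 1 was highest. Without the mesothelial cells that carried fibroblast markers, the sums were 117, 105, 82.1 and 118 CPM and 111 and 60.4 CPM. Without likely doublets that of control 2 was 87.6 CPM, while control 1 was still highest at 414 CPM. Top2a, a gene of dividing cells, stood at 26.0, 17.6, 4.42 and 2.11 CPM and 1.18 and 0.719 CPM. Of 13 genes tested 2 had an unadjusted p under 0.05, against 7 without control 3, 6 without control 4 and 1 without control 2 or without Zip8AEC2 2. Without control 1 or without control 2, where their sum was highest, the filter on low counts passed 8 of them, so no count of directions is given. The same holds for the erythroid genes given above, abundant in controls 2 and 4 only: 5 were tested, and 2 without control 2 or without control 4.

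To ask whether a difference between labels was particular to mesothelial cells, it was compared with that in fibroblast-gated cells of the same libraries by a class by genotype interaction. Of 12649 genes, 0.0% passed an adjusted p of 0.05 in edgeR (lowest adjusted p 0.404), 747 had an unadjusted p under 0.05, and the count was 0 under each of the 9 alternatives. For Bhlhe40 the log2 difference of mesothelial cells exceeded that of fibroblasts by 1.25 (SE 0.20, edgeR adjusted p = 0.435).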

How the data were processed

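CD45- lung cells of 4 control and 2 Zip8AEC2 libraries were profiled by 10x 3′ scRNA-Seq. The authors used Cell Ranger to map the reads to mm10 (software version 3.1.0 per the file headers) and deposited raw UMI counts per gene and barcode, before their Seurat filters. Library totals were 105774150, 114018446, 118771907 and 93852253 UMIs in controls 1 to 4 and 107957330 and 103337822 UMIs in Zip8AEC2 1 and 2.

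Kept barcodes and mesothelial cells were taken by the rule given with the results. Comparison classes were gated on the kept barcodes by at least 3 of 5 markers: fibroblasts (Col1a1, Col1a2, Col3a1, Dcn, Pdgfra, with under 2 rule genes, 11970 cells), AEC2s (17615 cells, also with Lamp3) and endothelial cells (2516 cells, with Cdh5). UMIs were summed per gene, library and class. Sums were tested with edgeR 4.0.16 (quasi-likelihood, TMM, filterByExpr, Benjamini-Hochberg adjustment over all genes tested, threshold 0.05) in R 4.3.3. The interaction fit had library as a block. Single values were compared by exact permutation over 15 splits. Doublets were scored against simulated pairs (0.8% per 1000 barcodes) and marked, and were removed only as an alternative. Thinning drew 2000 UMIs from each cell and left out 29 shallower mesothelial cells. Ratios over other cells had 1 CPM added. Scripts were tested on simulated data. Other settings were DESeq2 1.42.0, other scalings and filters, stricter or looser membership, and each library left out.

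The members and gene lists were chosen with earlier results of these data known. Named genes were the rule genes, in each list the up to 4 most abundant and the 2 of smallest genotype p, the 25 most selective, the 5 of smallest p in each direction at 20 CPM or more without overlap, and Slc39a8, Chil1 and H2-K1, apart from a few that are not reported here. Other genes named (among them Cdh1, Cdh2, Cdh3, Epcam, Nid2, Sox6, Tbx18, Isl1, Gata4, Igfbp3, Enpp2, Aqp1, Slurp1, the MHC class II genes, Podxl, Fzd1, Lsmem1, Isg15, H2-Q7, Irf1, Ccl2 and Esr1) were chosen after their values were seen.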

Additional observations from a re-analysis of the deposited data

Results flagged for a closer look

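Of 62 values tested in the 4 controls, 5 had 1 control farther from the others than the 95% critical value of Dixon's test allows, and chance flags about 1 in 20 groups. In control 4 the summed level of genes of mesothelial-to-mesenchymal transition was 7122 CPM, where the other controls had 9349 to 9688 CPM, and that of p53 targets was 2404 CPM, where they had 3421 to 3513 CPM. The summed level of immune markers was 1848 CPM in control 4, against 163 to 331 CPM, and Cd74 made up most of it. H2-Q6, a nonclassical class I gene, was at 309.6 CPM in control 4, against 16.6 to 58.7 CPM. Gata6 was at 201 CPM in control 3, against 256 to 263 CPM.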

How the results depend on the processing

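In mesothelial cells the count of genes past the threshold was 0 in edgeR and stayed at 0 in 15 of 18 alternatives, among them each library left out in turn. The replicate block (replicate number as a term, controls 1 and 2 numbered like Zip8AEC2 1 and 2) gave 2 genes, Pi16 (log2 difference -2.90) and Ifi202b (8.98), DESeq2 gave 10 and edgeR with no filter on low counts gave 5. Whether the numbers pair the libraries is not known. Deviations of same-numbered libraries correlated at -0.296 and 0.0727 over 6478 genes. The deviations of the 2 libraries labelled Zip8AEC2 from their own mean mirror each other, so these correlations cannot decide it. The difference in the share of mesothelial cells ran from -1.06 to 2.03 points over the libraries left out, and was -0.177 points without control 1. Of 528 alternatives for 30 named genes, 523 kept the direction of the difference, 5 did not, and 11 passed the threshold (among them Pi16 in 3, Bhlhe40, Ccl11 and Ly6c1 in 2 each and Neat1 in 1).

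Directions that turned were those of Slc39a8 without Zip8AEC2 2 (-0.036, range to 0.62 over the libraries left out), Cxcl2 without Zip8AEC2 1 (-5.65, while it was 4.998 without Zip8AEC2 2), and, with the replicate block, H2-K1 (0.18), H2-Q6 (0.33), H2-T23 (0.12) and the median of MHC class I genes (0.25, and -0.04 without control 4). The median of zinc genes was 0.018 without control 3, -0.062 without Zip8AEC2 2 and 0.0083 at 2000 UMIs a cell. With the replicate block the interferon median was -0.17, and that of chemokines was 1.19 without cells carrying fibroblast markers and 0.15 with at least 2 of the 4 rule genes. Medians of lists under these settings were a check chosen after seeing the data. The cause of these changes was not tested. The interaction with fibroblasts called 0 genes in all 9 of its alternatives. With 4 against 2 libraries and 70 to 407 cells in each, a log2 difference under about 0.519 could not be resolved for many genes. That is the median half-width of the 95% interval, which is not adjusted for the number of genes. Larger differences, such as those of Bhlhe40 (1.13) and Pi16 (-2.60), did not pass the adjusted threshold in the main edgeR fit either.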

Other observations

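The 538 barcodes that held at least 3 mesothelial genes but were left out for a UMI of an excluding gene had a median of 14038 UMIs and 15819 CPM of Sftpc, against 1220 CPM in mesothelial cells with all 4 rule genes. Their Gpm6a and Muc16 stood at 1003 and 383 CPM, between the levels of cells with 3 rule genes (682 and 161 CPM) and 4 (1617 and 611 CPM) for both genes.

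At 2000 UMIs a cell, 48.6, 33.1, 49.2 and 25.6% of mesothelial cells of the controls and 29.8 and 50.5% of those labelled Zip8AEC2 had a UMI of Kdr, against a mean of 52.4% of endothelial-gated cells, 1.25% of fibroblasts and 2.53% of AEC2s.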
